A study of Mus musculus with 12 samples.

Results

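Genes of the lysosome were examined as a list of 37 symbols. It covers cathepsins and other lysosomal proteases, glycosidases, a group of lipid hydrolases, sterol carriers and activators, membrane proteins, the regulator Tfeb and subunits of the proton pump. The list was matched by gene symbol to the array's transcript clusters, the probe groups that each stand for 1 transcript locus, and not by any measured value. Of the 37 genes, 36 had a cluster that carried their symbol alone, out of 30773 symbols measured in this way, and each of the 36 had 1 such cluster. The exception was Ctsd, cathepsin D, whose cluster also carries the symbol Ifitm10 and was therefore not used. All 36 measured genes were bright enough to be tested.

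RNA came from monocytes and macrophages separated magnetically from mouse bone marrow, and each of the 12 mice gave 1 whole-transcriptome array. All animals were Rag2-/-gamma c-/- on a BALB/c background, a genotype without functional Rag2 or common gamma chain that leaves the host without its own T, B and natural killer cells. The leukemia was MEC1, 1 human cell line established from a chronic lymphocytic leukemia, given to the animals by intravenous injection. The groups were mice with MEC1 at 21 days (early leukemia, 11 weeks of age), mice with no MEC1 at 21 days (11 weeks), mice with MEC1 at 31 days (late leukemia, 13 weeks) and mice with no MEC1 at 31 days (13 weeks), with 3 mice in each. The labels name no sham injection for the mice without MEC1, which are called control mice here.

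Lysosomes are acidic compartments in which hydrolases break down proteins, glycans and lipids taken up by endocytosis, phagocytosis or autophagy, and macrophages hold many of them. The vacuolar proton pump (V-ATPase) acidifies the lumen, membrane proteins such as the LAMPs line the compartment, and channels and carriers pass ions and products out. TFEB and its relatives bind the sequence CACGTG, often preceded by T, in promoters of many lysosomal genes, and it reads the same on both strands.

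Promoters of 5 genes are shown to place that sequence, 3 from genes that hold it (the channel Mcoln1, the membrane protein Lamp1 and the protease Ctsa) and 2 from genes that lack it and fell strongly at 31 days (Cd68 and Hexa). Each runs 5′ to 3′ in the direction of the gene, from before the annotated start to 50 bases after it, 300 bases in all, as given by RefSeq on GRCm38.p6, with CACGTG in capitals.
Mcoln1: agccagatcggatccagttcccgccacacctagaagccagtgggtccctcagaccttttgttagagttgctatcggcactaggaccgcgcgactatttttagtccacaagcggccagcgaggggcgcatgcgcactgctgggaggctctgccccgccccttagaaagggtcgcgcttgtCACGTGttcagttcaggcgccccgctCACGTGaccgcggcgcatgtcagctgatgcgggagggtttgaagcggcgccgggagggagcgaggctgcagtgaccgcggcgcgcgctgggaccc
Lamp1: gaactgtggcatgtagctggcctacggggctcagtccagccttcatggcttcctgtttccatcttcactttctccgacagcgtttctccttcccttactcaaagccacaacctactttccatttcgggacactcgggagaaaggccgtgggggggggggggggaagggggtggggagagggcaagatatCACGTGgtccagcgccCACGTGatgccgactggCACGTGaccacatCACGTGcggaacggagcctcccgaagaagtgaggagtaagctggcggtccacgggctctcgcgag
Ctsa: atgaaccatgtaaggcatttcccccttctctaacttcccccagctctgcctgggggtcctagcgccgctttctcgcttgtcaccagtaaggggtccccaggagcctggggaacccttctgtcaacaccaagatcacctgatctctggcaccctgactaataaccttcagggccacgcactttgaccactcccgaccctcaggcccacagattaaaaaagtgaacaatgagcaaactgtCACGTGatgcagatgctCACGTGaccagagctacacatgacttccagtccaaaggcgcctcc
Cd68: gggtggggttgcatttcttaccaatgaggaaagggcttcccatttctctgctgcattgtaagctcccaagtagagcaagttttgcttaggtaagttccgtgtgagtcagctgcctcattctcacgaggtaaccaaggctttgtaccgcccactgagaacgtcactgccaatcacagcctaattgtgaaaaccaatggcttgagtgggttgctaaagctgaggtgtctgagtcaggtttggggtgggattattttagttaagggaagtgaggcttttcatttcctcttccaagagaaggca
Hexa: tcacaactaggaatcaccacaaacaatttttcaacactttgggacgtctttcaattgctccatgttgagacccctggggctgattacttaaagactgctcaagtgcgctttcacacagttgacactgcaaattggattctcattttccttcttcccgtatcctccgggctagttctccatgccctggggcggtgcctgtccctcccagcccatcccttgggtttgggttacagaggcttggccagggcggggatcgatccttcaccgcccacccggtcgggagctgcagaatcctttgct
The stretches lie at chr8:3500269-3500568 (plus strand) for Mcoln1, chr8:13158911-13159210 (plus) for Lamp1, chr2:164833523-164833822 (plus) for Ctsa, chr11:69666121-69666420 (minus) for Cd68 and chr9:59539290-59539589 (plus) for Hexa. Lamp1 has 4 copies of CACGTG, and Mcoln1 and Ctsa have 2 each. Promoter entries were found for 31 of the 37 genes, 35 entries in all, and 10 of the 35 held CACGTG (28.6%), each from a different gene, against 7.15% of all 32851 promoters of the same length. The longer TCACGTG, which contains CACGTG and was also searched on the other strand as CACGTGA, was present in 9 of the 35 (25.7%), against 3.77% of all promoters. The 10 genes with CACGTG were Atp6v0d1, Atp6v1a, Ctsa, Ctsd, Ctsl, Gaa, Gla, Lamp1, Mcoln1 and Naglu.

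Values are log2 intensities as deposited, so that a difference of 1 is a doubling of signal. Apart from the matching by level, the marker sums and the array median and maximum, levels of different probes were not ranked against each other. Each change is the mean with MEC1 minus the mean of the control mice of the same day, with its standard error (SE) from limma and a two-sided p adjusted by Benjamini-Hochberg over 37240 tested clusters. A change with an adjusted p under 0.05 passed and is called a rise or a fall. The number of arrays limits the precision. The MEC1 arrays differed from the control arrays as a whole: the hybridisation controls, which are added after RNA extraction, read 11.8 to 12.04 with MEC1 against 10.71 to 10.87 in control mice at 21 days, and 12.15 to 13.18 with MEC1 against 10.47 to 10.7 in control mice at 31 days. The change of a gene also followed its level, so each lysosomal gene is set beside the other named genes within 0.5 log2 of it in the control mice of the day, between 61 and 2917 genes. Its change minus their median change is called its excess, and it is a description with no test. MEC1 replicate 3 at 31 days stood apart. Its 36 lysosomal genes lay below the control mean in 35 cases with a median difference of -1.71, against -0.74 and -0.57 in the other MEC1 mice of that day.

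Cell identity was read from marker lists. None of the 10 measured monocyte and macrophage markers lay at or below the array median throughout either day. The same was true of the 13 neutrophil, 8 erythroid and 6 proliferation markers measured, so that these levels do not tell the labelled cells from other marrow cells. Among all tested named genes 29% fell and 21.5% rose at 31 days, and 3.27% fell and 2.55% rose at 21 days. With MEC1 at 31 days, 8 of the 10 monocyte and macrophage markers fell (median change -1.52), and their summed signal on the log2 scale was 17.33 to 19.53 with MEC1 against 20.38 to 20.42 in control mice. At 21 days 2 of the 10 fell, with 19.51 to 20.02 with MEC1 against 20.33 to 20.38 in control mice. Ly6c2 and Lyz2 (19.41 and 19.33 in control mice at 31 days) carry most of this sum. Of the 13 neutrophil markers 6 fell at 31 days (18.44 to 20.8 with MEC1, 20.33 to 20.62 in control mice) and none passed at 21 days (20 to 20.3 with MEC1, 19.73 to 20.35 in control mice). All 6 proliferation markers fell at 31 days (median -2.41; 14.15 to 16.35 with MEC1, 17.73 to 18.06 in control mice). Of 6 dendritic cell markers, 5 of them tested, 3 fell at 31 days and 2 at 21 days (8.27 to 9.57 with MEC1 and 10.65 to 11.43 in control mice at 31 days). Of 6 B lineage markers, 5 of them tested, 4 rose at 31 days and 2 at 21 days (7.88 to 8.43 with MEC1 and 7.0 to 7.16 in control mice at 31 days). Of 4 megakaryocyte markers 1 fell at 31 days and none passed at 21 days (8.35 to 10.81 with MEC1 and 8.67 to 10.22 in control mice at 31 days). The median excess at 31 days was -0.45 for the monocyte and macrophage markers, -0.39 for the neutrophil and -1.57 for the proliferation markers. For the tested dendritic cell, B lineage and megakaryocyte markers it was -1.46, 0.27 and 0.04. The part of these shifts in the lysosomal values was not tested, and in such bulk RNA fewer cells of a type and less RNA per cell cannot be told apart.

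At 31 days 23 of the 36 lysosomal genes fell with MEC1 and none rose, which is 63.9% falling, against 29% falling and 21.5% rising among all 19511 tested named genes. The proteases of the aspartic and serine classes fell in 3 of 3, the lipid hydrolases, sterol carriers and activators in 6 of 6, the glycosidases in 5 of 8, the membrane proteins in 4 of 7, the cysteine cathepsins in 3 of 6 and the V-ATPase genes in 2 of 5. The median shares of their level-matched genes that fell were 64.7%, 65%, 47.2%, 54.9%, 55.9% and 61.1%, in the same order. The median change was -0.90, with a range of -4.85 to 0.19, against a median of -0.10 for all named genes. When the mean of the hybridisation controls was added to the model, the lysosomal median turned positive, to 0.60, against 0.02 for all named genes. Since 92.1% of the variance of these controls lay between the groups, that model can hardly separate them from MEC1. Level-matched genes had median changes of -1.17 to 0.03, with a median of -0.97 over the list, and the median excess was -0.02 (19 genes below 0, 17 above), and the median share of level-matched genes that fell was 55.9%. In 11 genes the change lay below the lower quartile of the level-matched genes (Ctsb, Ctse, Tpp1, Hexa, Man2b1, Lipa, Psap, Cd68, Laptm5, Mcoln1 and Atp6ap1), in 3 above the upper quartile (Ctsz, Atp6v1h and Atp6v1a) and in 22 between them. The MEC1 mice lay below all control mice without overlap in 27 genes, against 38.6% of named genes, and above them in 1, Tfeb. The share of named genes above all control mice was not counted. Of the genes level-matched to Tfeb 19.4% rose and 8.55% fell.

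**Figure D1:**
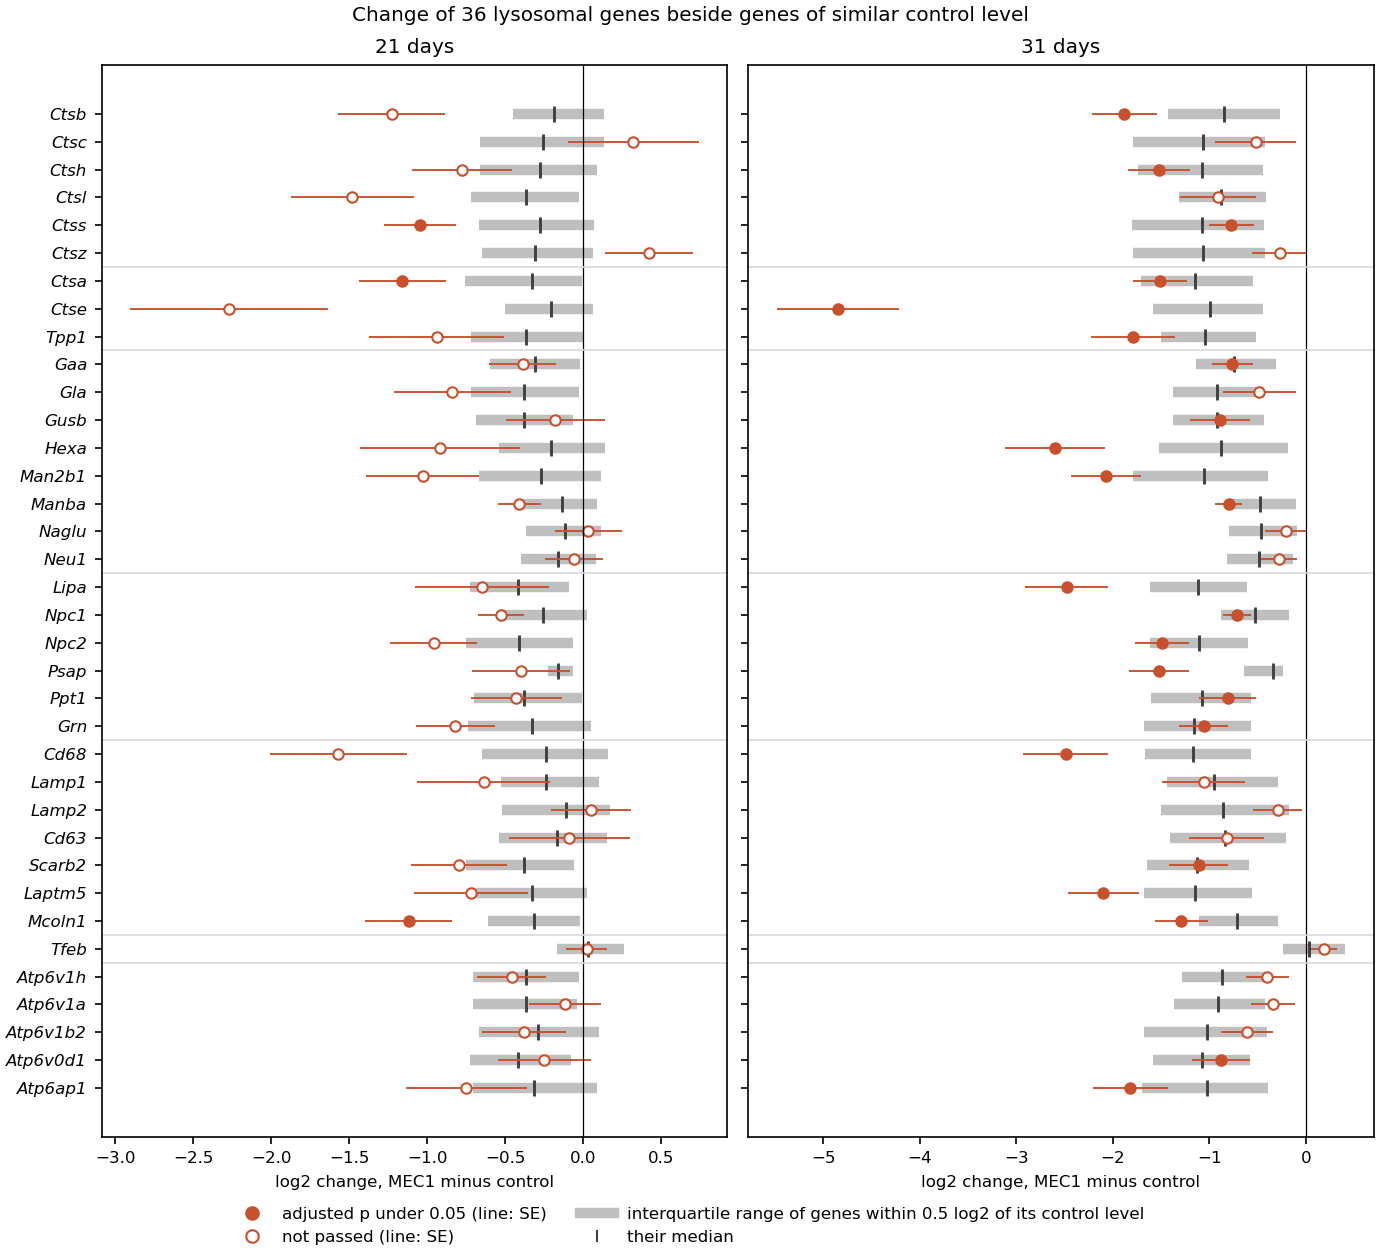
Log2 change (MEC1 minus control, x axis) of each of the 36 measured lysosomal genes (rows, grouped by role) at 21 days (left) and 31 days (right), as points with SE, filled where the adjusted p was under 0.05. Grey bars give the interquartile range and ticks the median of named genes within 0.5 log2 of the gene's control level; at 31 days 23 points are filled and 11 genes lie left of their bar.

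Without MEC1 replicate 3 at 31 days 18 of the 36 fell, beside 4018 named genes in place of 5666, and the median change of the 36 was -0.66. The 5 falls lost were those of Atp6v0d1 (-0.67, adjusted p = 0.13), Ctss (-0.56, adjusted p = 0.077), Gaa (-0.56, adjusted p = 0.0589), Gusb (-0.46, adjusted p = 0.11) and Ppt1 (-0.51, adjusted p = 0.163). The other 18 falls passed whichever of the 12 arrays was left out. With quantile normalization 15 of the 36 fell, against 17.8% of named genes, and with cyclic loess, which removes differences that follow the level, 13 fell, against 14.9%, and the median change was -0.15. The same 13 genes fell under all 3 scalings: Ctsb, Ctsh, Ctsa, Ctse, Hexa, Man2b1, Manba, Lipa, Npc2, Psap, Cd68, Laptm5 and Atp6ap1. With the hybridisation controls in the model no lysosomal gene passed, and of the named genes 0 fell and 7 rose. Of the variance of that term 92.1% was between the groups. Among all named genes at 31 days, centring each array on its own median gave a median change of -0.53 in place of -0.10. It gave 9086 falls and 1490 rises in place of 5666 and 4198, and cyclic loess gave 2906 and 3227. With centring 31 lysosomal genes fell. The 8 added were Ctsl (adjusted p = 0.0357), Naglu (0.0413), Neu1 (0.0339), Lamp1 (0.0284), Cd63 (0.0429), Atp6v1h (0.0153), Atp6v1a (0.0456) and Atp6v1b2 (0.0241).

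**Figure D2:**
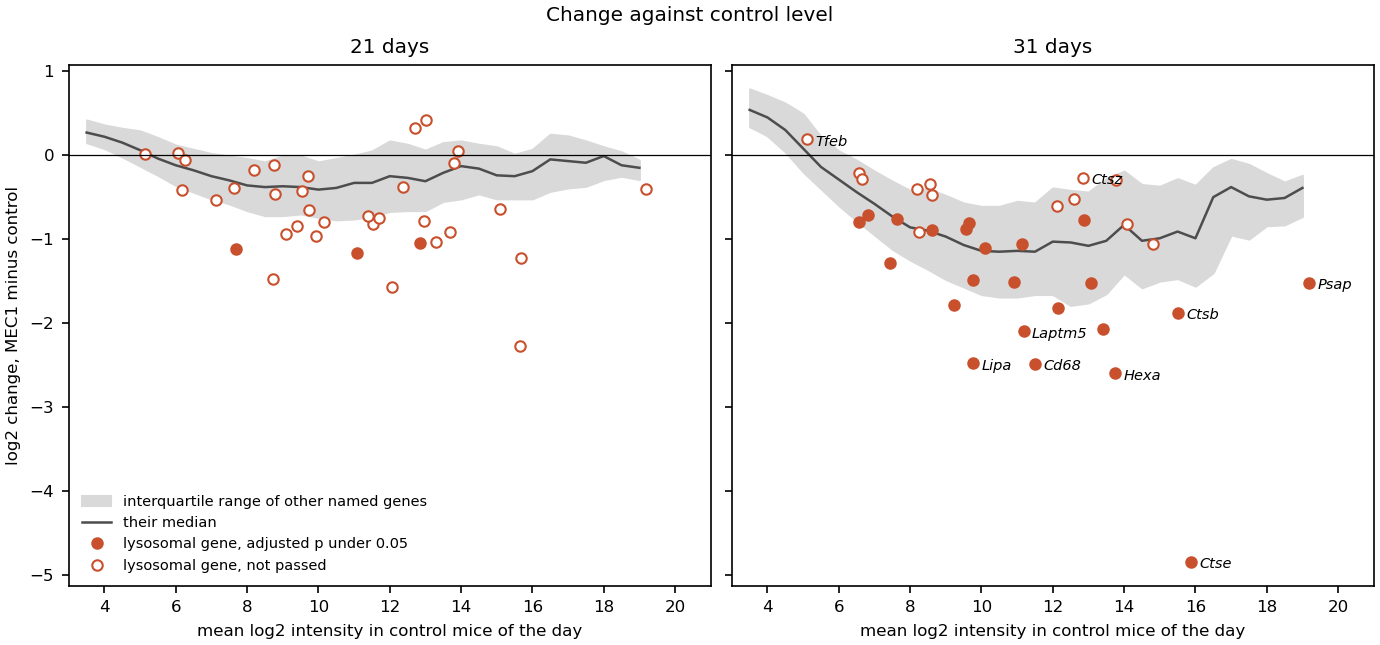
Log2 change (MEC1 minus control, y axis) against the mean log2 intensity in the control mice of the day (x axis) for the 36 lysosomal genes (points, filled where the adjusted p was under 0.05) at 21 days (left) and 31 days (right). The line and grey band are the median and interquartile range of other named genes in windows of 0.5 log2 to either side; at 31 days Ctse, Hexa, Psap, Lipa and Cd68 lie furthest under the quartile of their level, and Ctsz, Atp6v1h and Atp6v1a lie above theirs.

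Among the cysteine cathepsins, Ctsb, the endopeptidase and dipeptidyl carboxypeptidase cathepsin B, had 14.07, 14.08 and 12.76 with MEC1 at 31 days, against 15.44, 15.6 and 15.52 in control mice. All MEC1 mice were lower than every control mouse, and Ctsb fell by 1.88 (SE 0.34, adjusted p = 0.00236), with an excess of -1.03. Ctsh, the aminopeptidase cathepsin H, had 12.12, 11.97 and 10.59 with MEC1, against 13.08, 13.18 and 12.99 in control mice. The groups did not overlap and Ctsh fell by 1.52 (SE 0.321, adjusted p = 0.00478), with an excess of -0.44. Ctss, cathepsin S, which trims the invariant chain of MHC class II, had 12.2, 12.44 and 11.67 with MEC1, against 12.74, 13.03 and 12.86 in control mice. It fell by 0.77 (SE 0.231, adjusted p = 0.0213), less than the level-matched median (excess 0.31), and its change was 0.03 with cyclic loess.

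The other cysteine cathepsins did not pass at 31 days. Ctsz, the carboxypeptidase cathepsin Z, had 13.06, 12.79 and 11.87 with MEC1, against 12.89, 12.83 and 12.8 in control mice, so that 1 MEC1 mouse was above, 1 just below and 1 well below the control mice. Its change of -0.27 (SE 0.285, adjusted p = 0.456) had the highest excess of the list, 0.80, and with cyclic loess it was a rise of 0.48 (adjusted p = 0.0152). Ctsc, the dipeptidyl peptidase that activates granule serine proteases, had 12.62, 12.68 and 10.91 with MEC1, against 12.62, 12.53 and 12.61 in control mice. Only MEC1 replicate 3 was low, and the change was -0.52 (adjusted p = 0.325) with all arrays and 0.06 without that mouse. Ctsl, the endopeptidase cathepsin L, had a change of -0.91 (adjusted p = 0.0824) without overlap between the groups and an excess of -0.03.

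Ctse, an aspartic protease of endosomes that is also known from human red cell membranes, had the largest change of the list. It had 11.49, 11.43 and 10.15 with MEC1 at 31 days, against 15.74, 15.88 and 15.99 in control mice. Ctse fell by 4.85 (SE 0.635, adjusted p = 0.000578), which is 28.8-fold lower, its excess was -3.86, and the change was -4.19 with cyclic loess. Erythroid markers moved with it: all 8 measured ones fell at 31 days, against 29% of named genes, with a median change of -6.29 and a median excess of -5.19. Their summed log2 signal was 8.01 to 9.02 with MEC1 against 15.83 to 16.49 in control mice. At 21 days 5 of the 8 fell, with a summed log2 signal of 9.86 to 14.61 with MEC1 against 14.61 to 16.59 in control mice, and Ctse had 12.07, 13.0 and 15.05 with MEC1 against 15.08, 15.75 and 16.11 in control mice. The part of erythroid RNA in the Ctse value was not tested.

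**Figure D3:**
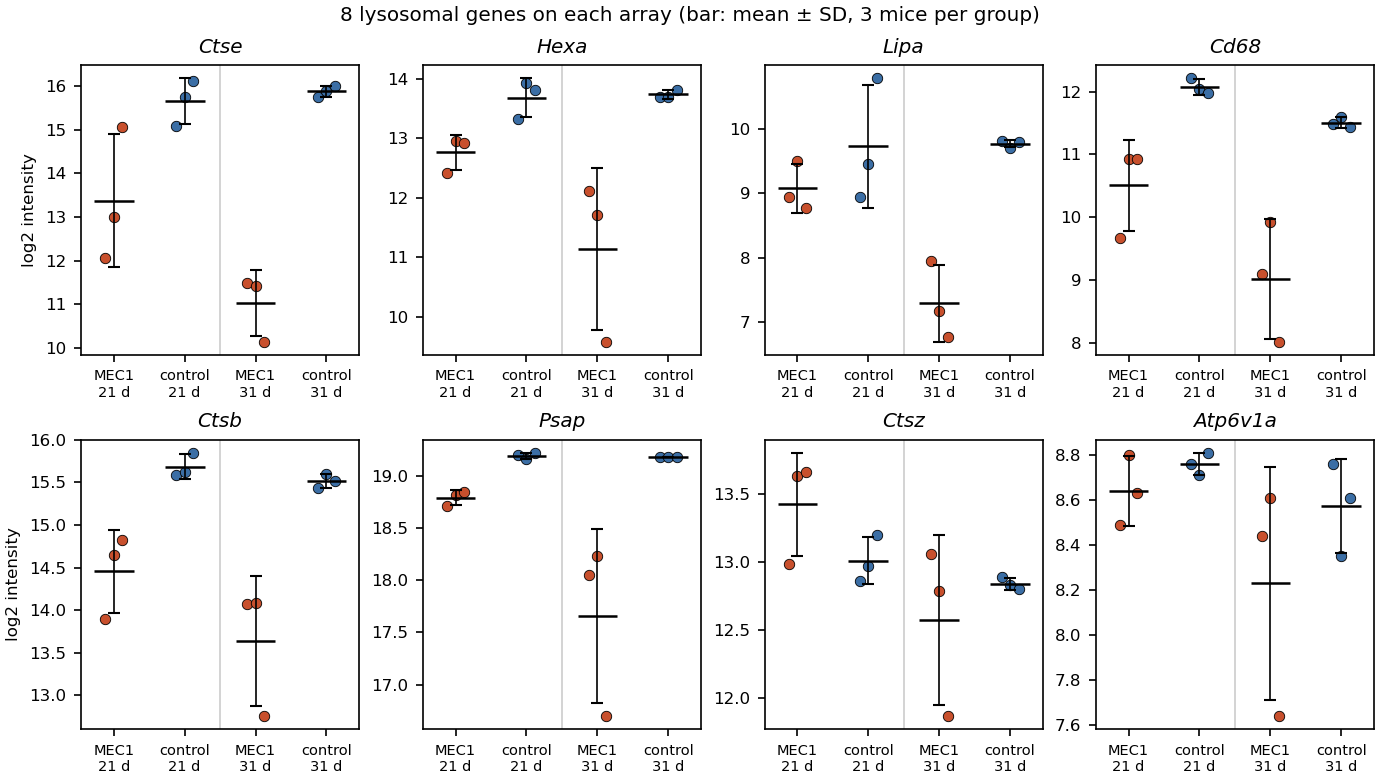
Log2 intensity (y axis) of 8 lysosomal genes on each array, with MEC1 mice in orange to the left of control mice in blue at 21 and at 31 days; bars are means with SD over 3 mice. At 31 days the groups do not overlap in Ctse, Hexa, Lipa, Cd68, Ctsb and Psap, and they overlap in Ctsz and Atp6v1a.

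Both serine proteases of the list fell at 31 days. Ctsa, a carboxypeptidase that also protects the sialidase Neu1 and β-galactosidase, had 9.67, 9.7 and 8.83 with MEC1, against 10.83, 11.17 and 10.72 in control mice. It fell by 1.51 (SE 0.278, adjusted p = 0.0026), with an excess of -0.36. Tpp1, a tripeptidyl peptidase, had 7.53, 7.66 and 7.1 with MEC1, against 9.01, 9.34 and 9.31 in control mice, without overlap. It fell by 1.79 (SE 0.433, adjusted p = 0.00885), with an excess of -0.75, but did not pass with cyclic loess (-0.91, adjusted p = 0.0666).

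Of the 8 glycosidases, Hexa and Man2b1 fell furthest at 31 days. Hexa, the alpha subunit of β-hexosaminidase A, which trims gangliosides, had 12.12, 11.71 and 9.58 with MEC1, against 13.7, 13.7 and 13.82 in control mice. Every MEC1 mouse was lower than every control mouse, Hexa fell by 2.6 (SE 0.514, adjusted p = 0.00358) and the excess was -1.72. Without MEC1 replicate 3 the change of Hexa was -1.82 (adjusted p = 0.00152). Man2b1, the lysosomal α-mannosidase, had 11.89, 11.8 and 10.32 with MEC1, against 13.5, 13.34 and 13.38 in control mice. It fell by 2.07 (SE 0.363, adjusted p = 0.00205), with an excess of -1.0. Manba, the β-mannosidase, had 5.8, 5.67 and 5.85 with MEC1 against 6.37, 6.74 and 6.61 in control mice, and fell by 0.80 (SE 0.14, adjusted p = 0.00203). The 3 MEC1 mice were close together in Manba, and MEC1 replicate 3 was not the lowest.

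Gaa, which degrades glycogen, and Gusb, the β-glucuronidase, fell by 0.76 (adjusted p = 0.0167) and 0.89 (adjusted p = 0.0418), near their level-matched medians (excess -0.02 and 0.03). Gla (α-galactosidase A), Naglu, which acts on heparan sulfate, and the sialidase Neu1 had changes of -0.48, -0.21 and -0.28, with adjusted p of 0.305, 0.43 and 0.227. Their MEC1 and control values overlapped, and their excess was 0.44, 0.25 and 0.21.

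The 6 genes grouped as lipid hydrolases, sterol carriers and activators all fell at 31 days, each without overlap between the groups. In 4 of them the change lay between the quartiles of the level-matched genes. Lipa, the acid lipase that frees cholesterol from its esters, had 7.94, 7.17 and 6.76 with MEC1, against 9.81, 9.71 and 9.8 in control mice. It fell by 2.48 (SE 0.431, adjusted p = 0.00196), with an excess of -1.36, and its change was -1.57 with cyclic loess (adjusted p = 0.0118). Npc2 and Npc1, which pass cholesterol out of the lysosome, fell by 1.49 (SE 0.279, adjusted p = 0.0028) and 0.71 (SE 0.147, adjusted p = 0.00448). Npc2 had 8.49, 8.6 and 7.69 with MEC1 against 9.76, 9.64 and 9.85 in control mice, and Npc1 had 6.23, 6.23 and 5.86 with MEC1 against 6.85, 6.84 and 6.75 in control mice.

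Psap, the precursor of the saposins that present lipids to hydrolases, had 18.05, 18.23 and 16.7 with MEC1 at 31 days, against 19.18 in each control mouse. It fell by 1.52 (SE 0.314, adjusted p = 0.0044), with an excess of -1.18 beside only 65 level-matched genes. Psap in control mice was thus close to the maximum over all arrays and features, 19.93, and a probe may saturate there. Grn, progranulin, fell by 1.06 (SE 0.255, adjusted p = 0.00881; 10.42, 10.42 and 9.38 with MEC1 against 11.26, 10.99 and 11.14 in control mice), and Ppt1, which removes palmitate from proteins, by 0.81 (adjusted p = 0.044). The excess of Grn and Ppt1 was 0.10 and 0.27, and neither passed with cyclic loess (-0.14 and 0.12).

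Among the membrane proteins, Cd68, a heavily glycosylated protein of macrophage late endosomes, had 9.1, 9.92 and 8.02 with MEC1 at 31 days, against 11.48, 11.6 and 11.43 in control mice. The groups were far apart, Cd68 fell by 2.49 (SE 0.437, adjusted p = 0.00206) and the excess was -1.32. Laptm5, found in lysosomes of blood cells, had 9.62, 9.59 and 8.04 with MEC1, against 11.23, 11.03 and 11.28 in control mice. It fell by 2.10 (SE 0.366, adjusted p = 0.00202), with an excess of -0.95. Mcoln1, the calcium channel TRPML1, had 6.5, 6.02 and 5.93 with MEC1 against 7.4, 7.85 and 7.07 in control mice, and fell by 1.29 (SE 0.277, adjusted p = 0.00522; excess -0.58). Scarb2, the receptor that carries glucocerebrosidase to lysosomes, fell by 1.11 (SE 0.307, adjusted p = 0.0157), at its level-matched median (excess 0.02).

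Lamp1, Lamp2 and Cd63 did not pass at 31 days. Lamp1 had 14.49, 14.31 and 12.44 with MEC1 against 14.7, 14.87 and 14.85 in control mice, a change of -1.06 (SE 0.426, adjusted p = 0.0635) that was -0.41 without MEC1 replicate 3. Lamp2 had 13.87, 13.82 and 12.75 with MEC1 against 13.72, 13.71 and 13.88 in control mice, a change of -0.29 (adjusted p = 0.363). In Lamp2 only MEC1 replicate 3 lay under the control mice. The tetraspanin Cd63 had overlapping values and a change of -0.82 (adjusted p = 0.105).

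Tfeb, the transcription regulator, had 5.22, 5.18 and 5.53 with MEC1 at 31 days against 5.12 in each control mouse. The MEC1 mice were all slightly higher, but the change of 0.19 (SE 0.132, adjusted p = 0.251, excess 0.16) did not pass, and it was -0.24 when arrays were centred on their median.

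Of the V-ATPase genes, Atp6ap1, an accessory subunit, fell by 1.82 (SE 0.389, adjusted p = 0.00504), with 10.89, 10.78 and 9.31 with MEC1 against 12.12, 12.21 and 12.12 in control mice and an excess of -0.80. Atp6v0d1, a subunit of the membrane sector, fell by 0.88 (adjusted p = 0.036), less than its level-matched median (excess 0.20), and its change was 0.06 with cyclic loess. The cytosolic-sector subunits of this list did not pass. The catalytic Atp6v1a had a change of -0.34 (adjusted p = 0.239), the regulatory Atp6v1h -0.40 (adjusted p = 0.162) and Atp6v1b2 -0.61 (adjusted p = 0.085). Outside this list, the cytosolic-sector genes Atp6v1d (-1.01, adjusted p = 0.0197) and Atp6v1e1 (-1.36, adjusted p = 0.011) fell at 31 days. Of the others tested, Atp6v1e2 rose (0.89, adjusted p = 0.0108), and Atp6v1c1, Atp6v1f, Atp6v1g1 and Atp6v1g2 did not pass. Atp6v1a had 8.44, 8.61 and 7.64 with MEC1 against 8.76, 8.35 and 8.61 in control mice, and its excess was 0.57. With cyclic loess Atp6v1a rose by 0.54 (adjusted p = 0.0441).

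The changes were also set out by the presence of CACGTG in the promoter stretch. At 31 days the 9 measured genes with it had a median change of -0.88 (-1.51 to -0.21), of which 4 fell, and the 21 with a promoter entry but without it had a median of -1.06 (-2.6 to 0.19), of which 15 fell. The median excess was -0.02 with the sequence and 0.02 without it. These values describe the genes and were not tested.

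At 21 days 3 of the 36 lysosomal genes fell with MEC1 and none rose (8.33% falling), against 3.27% falling and 2.55% rising among all named genes. Ctss had 11.44, 11.93 and 12.01 with MEC1, against 12.57, 12.89 and 13.07 in control mice, and fell by 1.05 (SE 0.231, adjusted p = 0.0339). Ctsa had 9.46, 9.96 and 10.31 with MEC1, against 10.86, 11.04 and 11.3 in control mice, and fell by 1.16 (SE 0.278, adjusted p = 0.0444). Mcoln1 had 6.28, 6.31 and 7.12 with MEC1, against 7.83, 7.42 and 7.82 in control mice, and fell by 1.12 (SE 0.277, adjusted p = 0.0485). The groups did not overlap in any of the 3. These calls sat close to the threshold: over the 12 fits that left out 1 array, Ctss passed in 7 and Ctsa and Mcoln1 in 2 each, and the number of falls ran from 0 to 14. It was 14 without MEC1 31 d replicate 3 and 6 without MEC1 21 d replicate 3. In these fits 1073 and 1210 named genes fell, against 638 with all arrays. The number of lysosomal falls was 0 when MEC1 21 d replicate 1 or 2, control 21 d replicate 2 or 3 or control 31 d replicate 3 was left out. Leaving out control 31 d replicate 1 or 2, or MEC1 31 d replicate 1, gave 1.

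Beyond the calls, the median change was -0.65 against 0.00 for all named genes, 31 of the 36 changes were below 0, and in 21 genes the MEC1 mice lay below all control mice, against 14.7% of named genes. The excess over genes of the same level had a median of -0.33, with 27 of the 36 below 0. Of the changes, 19 lay under the lower quartile of the level-matched genes and 2, Ctsc and Ctsz, above the upper. Marker lists also had a negative median excess at 21 days: -0.63 for monocyte and macrophage, -0.4 for proliferation and -2.91 for erythroid markers. For tested dendritic cell and osteoclast markers it was -0.6 and -0.73. For neutrophil, B lineage and megakaryocyte markers it was 0.17, 0.31 and -0.02. The median change of the 36 lysosomal genes turned positive, 0.28, with the hybridisation-control covariate (0.04 for all named genes). It was -0.44 with cyclic loess (0.01 for all named genes). Genes with large changes that did not pass were Ctse (-2.27, adjusted p = 0.0685), Cd68 (-1.57, adjusted p = 0.0679), Ctsl (-1.48, adjusted p = 0.0612) and Ctsb (-1.23, adjusted p = 0.0665). Cd68 had 9.67, 10.93 and 10.92 with MEC1 at 21 days, against 12.21, 12.04 and 11.97 in control mice. Ctsl had 6.49, 7.37 and 7.85 with MEC1, against 8.03, 9.07 and 9.05 in control mice.

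By role, the changes at 21 days ran as follows. The cysteine cathepsins ran from -1.48 to 0.42, with Ctsz highest (12.99, 13.63 and 13.66 with MEC1 against 12.86, 12.97 and 13.2 in control mice; 0.42, adjusted p = 0.389). The glycosidases ran from -1.03 (Man2b1) to 0.03 (Naglu), with a median of -0.40, and the lipid hydrolases, sterol carriers and activators from -0.96 (Npc2) to -0.40 (Psap). The membrane proteins had a median of -0.72, up to 0.05 for Lamp2, whose control mice all read 13.91 against 13.82, 14.11 and 13.94 with MEC1. The V-ATPase genes had a median of -0.38 (-0.75 to -0.12), and Tfeb had 5.21, 5.21 and 5.09 with MEC1 against 5.2, 5.12 and 5.14 in control mice, which overlap.

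**Figure D4:**
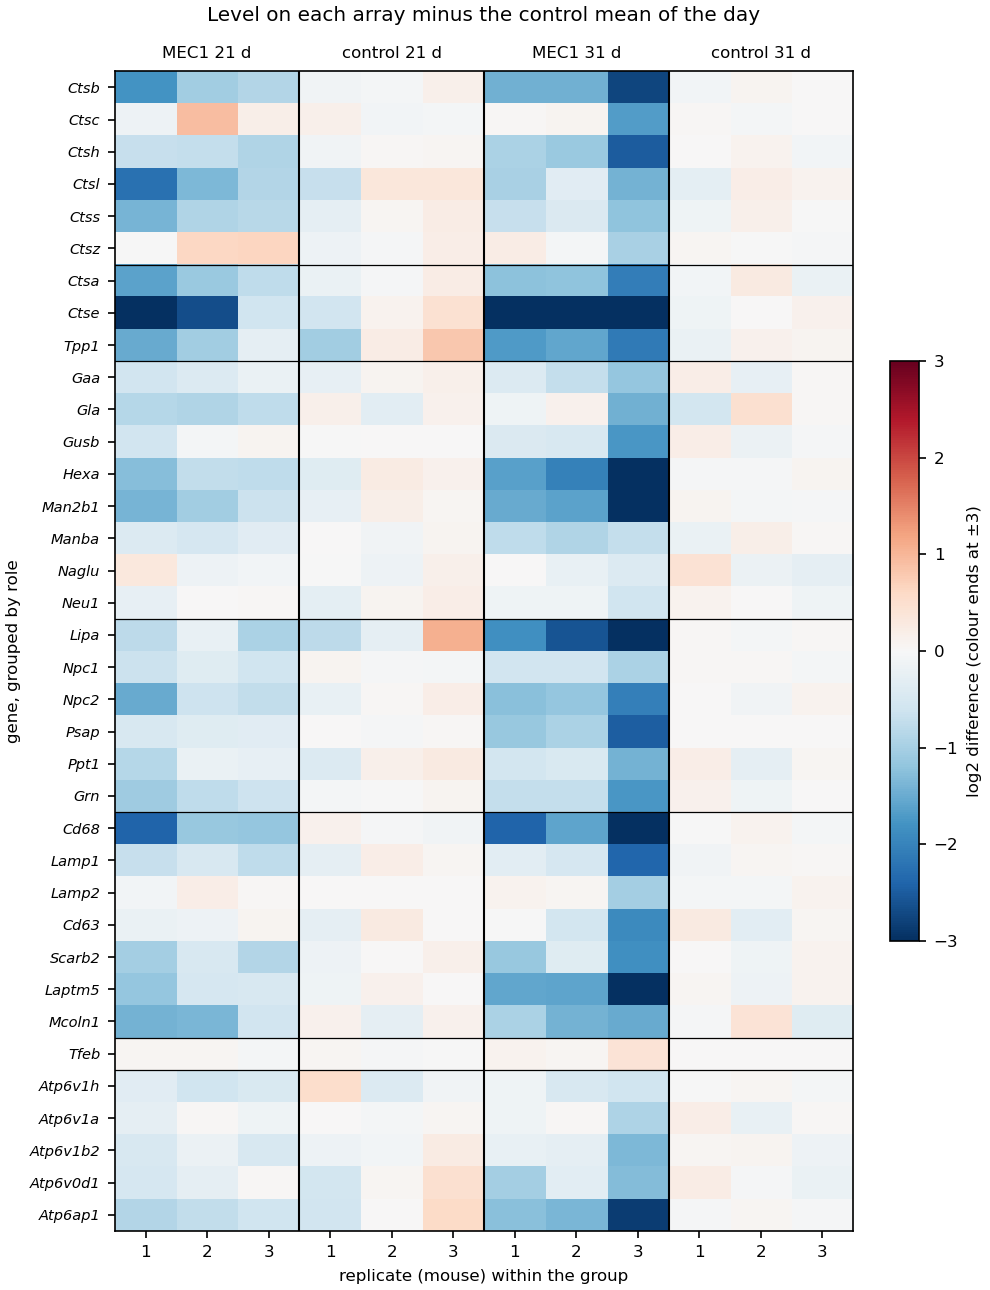
Log2 level of each of the 36 lysosomal genes (rows, grouped by role) on each of the 12 arrays (columns, with MEC1 mice left of control mice at each day) minus the control mean of the day, blue below and red above, with colour ending at 3 log2 to either side. MEC1 replicate 3 at 31 days is below the control mean in 35 rows, and Ctsc, Ctsz, Lamp2 and Tfeb are at or above it in most other MEC1 columns.

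The change with MEC1 was compared between the days by the difference of the 2 changes (31 days minus 21 days). None of the 36 genes passed (lowest adjusted p = 0.333, limma), against 0.00513% of named genes, and 5 had an unadjusted p under 0.05. These 5 were Lipa (-1.83, SE 0.609), Ctse (-2.57, SE 0.897), Laptm5 (-1.38, SE 0.517), Psap (-1.12, SE 0.444) and Hexa (-1.68, SE 0.727), each with the lower change at 31 days. The difference ran from -2.57 to 0.57 with a median of -0.40, and 31 genes were below 0. No gene's change was thus shown to differ between the days. Between control mice of 31 and of 21 days none of the 36 passed (lowest adjusted p = 0.573; 3 with an unadjusted p under 0.05), against 0.0103% of named genes, and the differences ran from -0.77 to 0.52.

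Other genes of the lysosome, listed apart from the 37, were counted in the same way, beside the shares of all tested named genes given above (29% falling and 21.5% rising at 31 days, 3.27% and 2.55% at 21 days). Of 31 other lysosomal enzymes and activators measured, 30 were bright enough to be tested, and 21 of these fell and none rose at 31 days (median change -0.86), and 6 fell at 21 days. The largest fall was Arsb, arylsulfatase B, at 31 days (-2.70, SE 0.427, adjusted p = 0.00129; 9.23 ± 1.09 with MEC1 and 11.94 ± 0.114 in control mice) and Ids, iduronate sulfatase, at 21 days (-2.08, SE 0.266, adjusted p = 0.00445; 8.13 ± 0.493 with MEC1 and 10.21 ± 0.195 in control mice; SD, n = 3 each). Of 25 other membrane proteins and transporters 22 were tested, of which 16 fell at 31 days and 4 at 21 days, none rising. They were led by the channel Tpcn1 at 31 days (-3.53, SE 0.464, adjusted p = 0.000592; 7.50 ± 0.653 with MEC1 and 11.03 ± 0.256 in control mice) and by the metal transporter Slc11a1 at 21 days (-1.69, SE 0.238, adjusted p = 0.00626; 6.51 ± 0.0503 with MEC1 and 8.20 ± 0.416 in control mice). The median excess of the tested genes was -0.31 for the enzymes (30 genes) and -0.27 for the membrane proteins (22 genes) at 31 days.

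Of 12 genes that sort enzymes to lysosomes, all tested, 10 fell at 31 days and none passed at 21 days. The largest fall was Vps35, a retromer subunit (-1.49, SE 0.267, adjusted p = 0.00228). Of 19 other V-ATPase subunits 13 were tested, of which 6 fell and 1 rose at 31 days against 29% and 21.5% of named genes, with none passing at 21 days. Atp6v0e (-1.40, SE 0.408, adjusted p = 0.0195) and Tcirg1 (-1.40, SE 0.342, adjusted p = 0.00931) had the largest falls, equal at these digits, and Atp6v1e2 was the rise (0.89, SE 0.224, adjusted p = 0.0108), with 5.58 ± 0.373 with MEC1 and 4.69 ± 0.29 in control mice. Of 7 osteoclast markers 2 were tested and 1 of these fell at each day, and the 4 markers Calcr, Ocstamp, Ctsk and Atp6v0d2 lay at or below the array median on all 6 arrays of each day.

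Of 17 regulators of lysosome biogenesis and nutrient sensing, all tested, 9 fell and 1 rose at 31 days (29% and 21.5% of named genes) and 2 fell at 21 days (3.27%). Lamtor2, of the complex that recruits mTORC1 to lysosomes (-1.06, SE 0.287, adjusted p = 0.0144), and Rptor, a subunit of mTORC1 (-1.06, SE 0.185, adjusted p = 0.00206), had the largest falls, equal at these digits. The GTPase gene Rragd was the rise (0.43, SE 0.149, adjusted p = 0.0384; 4.48 ± 0.15 with MEC1 and 4.05 ± 0.0929 in control mice). Named genes within 0.5 log2 of a control level of 4.0 had a median change of 0.45 at 31 days, with quartiles of 0.23 and 0.71. Rragd also lay close to the medians of the MEC1 arrays of that day, 4.13 to 4.4. At 21 days the largest fall was Mitf, a relative of Tfeb (-0.91, SE 0.156, adjusted p = 0.0144; 6.03 ± 0.207 with MEC1 and 6.95 ± 0.168 in control mice). Of 16 autophagy genes 15 were tested, of which 8 fell at 31 days and 2 at 21 days. Map1lc3b, an LC3 gene, fell by 1.44 at 31 days (SE 0.188, adjusted p = 0.00057), and the kinase gene Ulk1 by 1.15 at 21 days (SE 0.171, adjusted p = 0.00766). The median excess of the sorting genes was -0.25, against -0.01 for the regulators, 0.04 for autophagy and 0.04 for the other V-ATPase subunits, at 31 days. At 21 days it was -0.33 for the other enzymes, -0.37 for the other membrane proteins and -0.22 for the sorting genes. It was then -0.05 for the regulators, -0.14 for autophagy and -0.08 for the other V-ATPase subunits.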

How the data were processed

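The deposited values were log2 intensities per transcript cluster. The submitters' processing notes name RMA and Affymetrix Expression Console; versions are not given in the sources used here. Leaving out 6732 control features of 72688 gave 65956 clusters. Platform symbols were updated through RefSeq: 31250 clusters had 1 symbol, 1500 several and 33206 none. Clusters above the array median in at least 3 arrays were tested. A model with 4 group means was fitted to all 12 arrays with limma 3.58.1 (lmFit and eBayes, R 4.3.3), two-sided, with Benjamini-Hochberg adjustment over the tested clusters and a threshold of 0.05. The procedure was tested on simulated data with independent noise and known changes in some clusters. That simulation held no difference between whole arrays and none that followed the level, so it cannot tell how the calls behave under such differences. The members, the 6 further pathway lists, the marker lists and the tests were chosen with earlier results of these data known. Every member is named, and of each further list the largest rise and fall that passed. The fit did not treat equally numbered mice as paired. Over 18 pairs of equally numbered arrays the correlation of deviations ran from -0.36 to 0.42, with 4 pairs over 0.1, which does not exclude a pairing. The labels give each array its own mouse. Alternatives were other filters, scalings, empirical Bayes settings, array weights, a replicate block, a hybridisation-control covariate, other level windows, the 6 arrays of a day alone and leaving out each array. Sequence came from RefSeq promoter tables on GRCm38.p6; protein sequences were not used here.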

Additional observations from a re-analysis of the deposited data

Results flagged for a closer look

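The hybridisation controls, which stand outside the gene measurements, read higher with MEC1 than in control mice, by 1.11 on the log2 scale at 21 days and by 1.96 at 31 days. Their part in the lysosomal values was not tested beyond the covariate values given with the processing alternatives.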

How the results depend on the processing

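At 21 days 3 genes fell. The count was 1 with no filter or with the replicate block, 5 with quantile normalization or median centring, 6 with cyclic loess, 21 with array weights and 0 with trend and robust moderation, the hybridisation-control covariate or the 6 arrays of the day, and 0 to 14 over the fits that left out an array. Of the 19511 named genes 638 fell at 21 days, with 375 under the replicate block, 295 with quantile normalization and 894 with median centring. The number was 469 with cyclic loess, 4984 with array weights and 475 with trend and robust moderation. It was 0 with the covariate, 188 with the 6 arrays of the day and 130 to 1210 without 1 array. No lysosomal gene rose at 21 days, but 1 did with cyclic loess and 2 with array weights, where 546 and 4202 named genes rose. At 31 days 23 lysosomal genes fell, with 31 under median centring, 21 under the replicate block, 15 with quantile normalization, 13 with cyclic loess and 0 with the covariate, and 18 to 25 without 1 array. None rose, but 2 did with cyclic loess, where 3227 named genes rose. Of the named genes 5666 fell at 31 days, with 9086 under median centring, 5164 under the replicate block and 3464 with quantile normalization. The number was 2906 with cyclic loess, 0 with the covariate and 4018 to 5870 without 1 array. The median change of the lysosomal genes turned positive with the covariate, to 0.28 at 21 days and 0.60 at 31 days, against 0.04 and 0.02 for all named genes. With cyclic loess it was -0.15 at 31 days, against -0.02 for all named genes. With the replicate block Gusb (adjusted p = 0.0626), Ppt1 (0.0678) and Atp6v0d1 (0.0505) no longer passed at 31 days and Ctsl did (0.0475), and at 21 days Ctsa (0.0728) and Mcoln1 (0.0878) did not. The difference between days passed in 2 genes with array weights and in none otherwise. With cyclic loess Ctss (0.03), Ppt1 (0.12), Atp6v0d1 (0.06), Ctsz (0.48) and Atp6v1a (0.54) turned positive at 31 days. With the covariate so did Ctsa (0.40), Ctss (0.49), Ppt1 (0.66), Laptm5 (0.82), Scarb2 (0.50), Gusb (1.57), Mcoln1 (0.08), Man2b1 (0.83), Hexa (1.75), Ctsh (1.10), Atp6ap1 (0.84), Psap (1.07), Grn (0.84), Gaa (0.30), Cd68 (0.48), Npc2 (0.12), Ctsb (0.82) and Npc1 (0.03), none passing. Signs of changes that passed in neither fit turned in 79 of 1656 single-gene values. The cause was not tested. Where it was worked out, the median excess stayed between -0.42 and -0.19 at 21 days and between -0.20 and 0.06 at 31 days. It was not worked out with cyclic loess or with the covariate, so its stability under these is not known. Each gene had 1 cluster, so averaging clusters changed no member's value. Signal near the array maximum limits Psap.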
